A study of Mus musculus with 8 samples.

Results

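This account describes how mRNA on heavy polysomes differed between C2C12 cells that overexpressed AUF1 and WT C2C12 cells. C2C12 is a line of mouse myoblasts, muscle precursor cells that stop dividing and fuse into multinucleate myotubes in low serum. Per the labels, both kinds of cells were grown in medium with 10% fetal bovine serum and then kept for 48 h in medium with 2% horse serum, which starts differentiation. The comparison takes the libraries titled High, which were read as the heavy polysome fraction, with 2 libraries from AUF1 cells (genotype labelled AUF1 overexpression) and 2 from WT cells, so 4 of the 8 libraries of the series, and all 23420 genes counted. The other 4 libraries hold total RNA of the same genotypes. The titles number the libraries of a group 1 and 2, while the descriptions call the second one Rep3, and the title numbers are used here. The sources used here do not give the vector or promoter that drives AUF1, any control vector in the WT cells, whether the AUF1 cells are 1 clone, or whether libraries of a group come from separate cultures. Effects of AUF1 therefore cannot be told apart from other differences between the 2 kinds of cells, and each p-value reflects the spread among libraries, which may be only technical.

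AUF1, the product of Hnrnpd, is an RNA-binding protein that recognises AU-rich elements in 3′ untranslated regions and can speed the decay of an mRNA, stabilise it or change its translation, depending on the mRNA and the cell. An mRNA carried by many ribosomes sediments in the heavy polysome fraction, so the amount of an mRNA there depends both on how much of it the cell holds and on how fully it is loaded with ribosomes. During myoblast differentiation, myogenic factors such as MyoD and myogenin switch on cell cycle exit, fusion and the genes of the sarcomere, while genes of proliferating, matrix-producing myoblasts decline.

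Gene counts came to 27040518 to 33860652 in the 4 polysome libraries. Hnrnpd (chr5:99955935-99978938 on the minus strand of mm10), the overexpressed gene, measured 106 and 131 CPM (counts in each 1000000 of the TMM-scaled library) on polysomes in WT libraries 1 and 2, against 549 and 427 CPM in AUF1 libraries 1 and 2. Values of 2 libraries are always given in this order, library 1 and then library 2, WT before AUF1. Hnrnpd was higher in both AUF1 libraries than in either WT library, with a log2 fold change of 2.05 ± 0.28 (SE, n = 2 libraries per group) and an adjusted p of 0.00184 in edgeR's quasi-likelihood test. Without a term for the library number, described below, its adjusted p was 0.0608. Changes below are log2 fold changes on heavy polysomes, AUF1 over WT, with the SE after the ± sign. Reads of an introduced copy and of the cells' own gene cannot be told apart in these counts. All 10 myoblast and myotube markers on the list used here were detected, with a summed level of 6595 and 7675 CPM in WT and 20446 and 21701 CPM in AUF1 libraries. The measured markers of immune cells (5), endothelial cells (3) and neural cells (7) summed to 5.68 to 12 CPM, 1.43 to 8.07 CPM and 52.8 to 69.1 CPM. Bone and cartilage markers (5 measured, 0 called) summed to more, 631 and 235 CPM in WT and 790 and 205 CPM in AUF1 libraries. The endothelial sum was 3.81 and 1.43 CPM in WT and 7.37 and 8.07 CPM in AUF1 libraries, where Vwf, von Willebrand factor, was called higher (0.312 and 0.571 to 2.86 and 7.34 CPM, 3.45 ± 0.43). The macrophage lysozyme gene Lyz2 was the immune marker called, lower at 1.39 and 0.0635 to 0.0932 and 0 CPM, on so few counts that no fold is given, and its call was lost without WT polysome 1 or AUF1 polysome 1. Fibroblast markers are given below beside the matrix genes. The library numbers also mattered. The deviations of same-numbered WT and AUF1 polysome libraries from their group means correlated at 0.90 (Pearson) across 11159 genes, which are not independent replicates. A term for the library number is part of the model because it was set with the comparison, not because of this correlation. The change within each number is given as a description with no test.

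Because AUF1 binds AU-rich elements, the nonamer TTATTTATT, a core form of such elements, was looked for on the sense strand of the longest annotated 3′ untranslated region of each gene (GENCODE M21, mm10), with overlapping matches counted. Of the 12576 tested genes with such a region, 1038 (8.25%) held it. It was in 62 of 846 genes that were higher with AUF1 (7.33%) and in 61 of 804 that were lower (7.59%). The regions had median lengths of 946 bases in the higher, 1242.5 bases in the lower and 1174 bases in all genes. Among regions of 2000 bases or more the shares were 16.7%, 14.7% and 15.9%. A match is a string of letters in the reference, not a measured binding site, and the shares are a description with no test. The first 4 of the following stretches, with the nonamer in capitals, come from mRNAs that were higher on polysomes with AUF1 and the other 6 from mRNAs that were lower, to show that the same letters occurred on both sides. The Padi2 stretch holds 2 overlapping matches, of which the first is in capitals.
Padi2: tattaaagatTTATTTATTtattttatgt
Rbm24: cctgtgcaaaTTATTTATTtgttgtgtat
Pfkm: aaaataagctTTATTTATTtctttgtgat
Erbb3: actgtaaggaTTATTTATTtcaggaactt
Kcnj2: tgttcttctgTTATTTATTtcagcatgga
Thbs1: taaatacagaTTATTTATTaaccctgttc
Fos: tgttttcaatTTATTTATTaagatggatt
Zfp36: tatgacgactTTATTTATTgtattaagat
Zfp36l2: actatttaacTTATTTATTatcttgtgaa
Col12a1: ctgccttataTTATTTATTtctgaaacaa
In mm10 these lie at chr4:140951452-140951480 (plus strand) for Padi2, chr13:46431004-46431032 (plus strand) for Rbm24, chr15:98132339-98132367 (plus strand) for Pfkm and chr10:128568185-128568213 (minus strand) for Erbb3. The stretches of lower mRNAs lie at chr11:111075777-111075805 (plus strand) for Kcnj2, chr2:118126155-118126183 (plus strand) for Thbs1, chr12:85477103-85477131 (plus strand) for Fos, chr7:28376951-28376979 (minus strand) for Zfp36, chr17:84184914-84184942 (minus strand) for Zfp36l2 and chr9:79599027-79599055 (minus strand) for Col12a1. All 10 are in annotated 3′ untranslated regions.

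With AUF1, many mRNAs of the contractile apparatus, of calcium handling and of muscle energy supply were higher on heavy polysomes, and many of Wnt feedback, extracellular matrix, cytokines and matrix enzymes were lower. Of 13167 genes tested, 1716 (13%) passed an adjusted p of 0.05, 882 higher (6.7%) and 834 lower (6.33%). In bulk RNA, fewer cells in a given state and less RNA per cell cannot be told apart. Among the genes called higher, 150 changed over 8-fold, 189 by 4-fold to 8-fold, 405 by 2-fold to 4-fold and 138 by less than 2-fold, and among those called lower the counts were 131, 149, 429 and 125. The genes called higher took up 5.27% and 6.53% of the polysome CPM of tested genes in WT libraries 1 and 2 and 14.8% and 17.4% in AUF1 libraries 1 and 2. The genes called lower took up 8.07% and 5.96% in WT and 2.76% and 2.37% in AUF1 libraries. These shares describe genes that the same values selected. The calls depend on the term for library number. Without it 46 genes were called (37 higher, 9 lower), all among the 1716. Beside the sarcomere lists below, the lists that then kept called genes were glycolysis and glycogen and the muscle ubiquitin ligases with 3 each, and creatine and purine energy, splicing, Wnt feedback, cytokines and AU-rich mRNAs with 1 each. On every other list described here 0 were called. Leaving out AUF1 polysome 1 (library 1 of the AUF1 polysome group, and so on below) gave 592, AUF1 polysome 2 949 and WT polysome 1 1130, while leaving out AUF1 total 1 or 2 gave 3011 and 2802. 489 genes (314 higher, 175 lower) were called whichever of the 8 libraries was left out. Scaling to total counts alone shifted the median log2 fold change of all genes by -0.12, and 39.8% of its calls were higher, against 51.4% of the main calls.

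**Figure D1:**
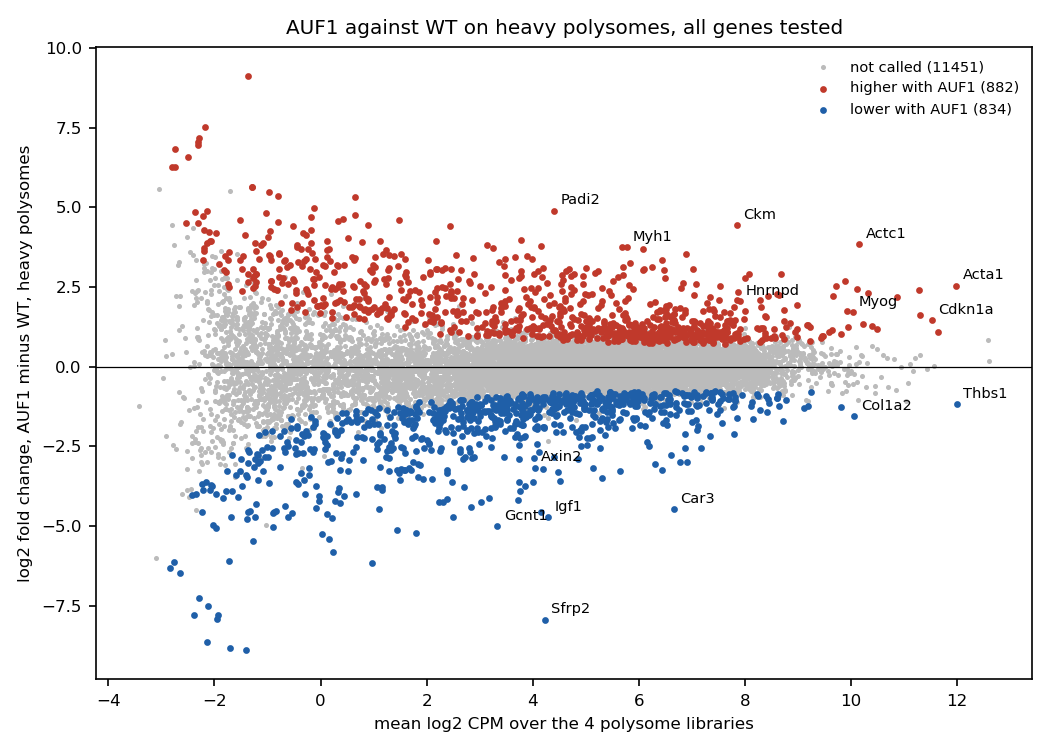
Each point is 1 of the 13167 tested genes, with the mean log2 CPM over the 4 polysome libraries on the x axis and the log2 fold change of AUF1 over WT on heavy polysomes on the y axis. Red points are the 882 genes called higher and blue points the 834 called lower. Acta1 and Actc1 sit at the right above 0, Thbs1 at the right below 0, and Sfrp2 lies far below 0.

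The AUF1 and WT libraries did not overlap for 814 of the higher and 711 of the lower genes, where 44.8% of all tested genes showed no overlap. Groups can overlap where the numbers differ strongly while the change within each number has the same sign. Mymk, the muscle-specific membrane fusion protein (listed under its older symbol Tmem8c), is an example. Its level was 354 and 62.4 CPM in the WT and 1905 and 220.0 CPM in the AUF1 libraries, so AUF1 library 2 lay below WT library 1. Its change was 2.43 and 1.82 on the log2 scale within numbers 1 and 2, and 2.10 ± 0.29 in the fit (adjusted p = 0.00209).

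**Figure D2:**
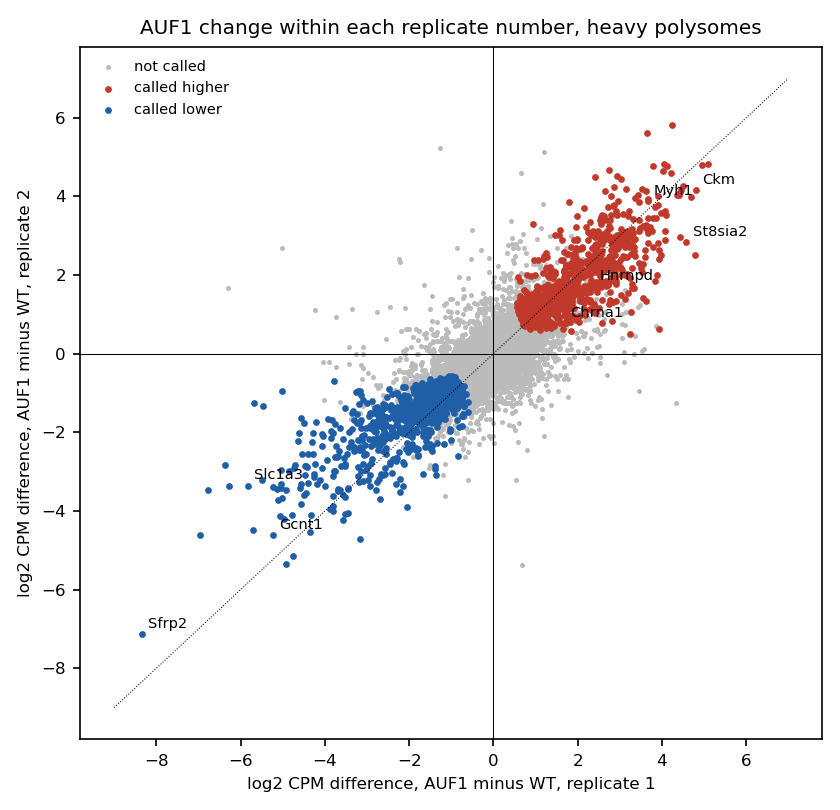
The log2 CPM difference of AUF1 minus WT (prior count 2) within library number 1 is on the x axis and within number 2 on the y axis, 1 point per tested gene, with the dotted line marking equal changes. The called genes, red for higher and blue for lower, lie at the upper right or the lower left, where both numbers have the same sign, as a model with an additive number term largely requires of them.

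All 24 tested genes of the thick filament and its M-band were called higher, with a median log2 fold change of 2.58, against -0.01 over all genes. Myosin heavy chains form the motor of the sarcomere. Myh1, an adult fast chain, rose from 16.2 and 13.3 CPM in the WT libraries to 206 and 197 CPM in the AUF1 libraries (3.76 ± 0.35, adjusted p = 0.000449). Myh3, the embryonic chain, stood at 93.1 and 102 CPM in WT and 657 and 695 CPM in AUF1 libraries (2.80 ± 0.30, adjusted p = 0.000634). Both chains were separated between the genotypes in each library, with little spread inside a group. Among the partners of myosin, the light chain Myl1 went from 71 and 137 to 565 and 985 CPM (2.91 ± 0.23) and Mylpf, the fast regulatory light chain, from 1149 and 1779 to 4208 and 4764 CPM (1.62 ± 0.31, adjusted p = 0.00890). Unc45b, the chaperone that folds myosin, rose by 2.99 ± 0.28. Myosin heavy chain genes are near-identical in places, and reads shared between them could have been divided or dropped in counting.

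Of 20 thin filament genes 17 were called higher (85%, against 6.7% of all genes), with a median of 2.35. Actc1, cardiac actin, which is also made in embryonic and cultured muscle, stood at 210.4 and 429.8 CPM in WT and 3171 and 5944 CPM in AUF1 libraries (3.85 ± 0.27, adjusted p = 0.000211). Acta1, skeletal actin, had one of the 10 largest gains in CPM, from 1218 and 2285 to 9018 and 10907 CPM (2.55 ± 0.31). Both actins were higher in library 2 than in library 1 in either genotype, and neither overlapped between genotypes. Actin genes also share long stretches of sequence. The calcium switch of the thin filament moved with them: troponin T genes Tnnt3 (2.70 ± 0.24) and Tnnt2 (2.33 ± 0.23), the slow troponin I gene Tnni1 (2.45 ± 0.28) and Tnnc1, slow and cardiac troponin C (2.20 ± 0.30), all rose. Tropomyosin genes rose as well, Tpm2 from 931 and 1281 to 4726 and 6933 CPM (2.39 ± 0.26, adjusted p = 0.000635) and Tpm1 by 1.10 ± 0.22 (adjusted p = 0.0123). Tmod1, which caps the pointed end of actin filaments, rose by 3.14 ± 0.24, and Klhl41, a Kelch protein of the thin filament, by 3.03 ± 0.23. The call of Tpm1 was lost without WT polysome 1, or AUF1 polysome 1 or 2.

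The Z-disc anchors thin filaments, and 21 of 29 Z-disc genes were called higher (72.4%, against 6.7% of all genes, median 1.57). Ankrd2, a stretch-responsive ankyrin repeat protein, stood at 21 and 57.1 CPM in WT and 266 and 628 CPM in AUF1 libraries (3.55 ± 0.28, adjusted p = 0.000235). Its relative Ankrd23 rose by 3.01 ± 0.25, Myoz2, which binds calcineurin and alpha-actinin, by 2.84 ± 0.25, and the small heat shock protein gene Hspb3 by 3.96 ± 0.32. Desmin (Des), the muscle intermediate filament, rose less, from 881 and 1025 to 2188 and 2168 CPM (1.19 ± 0.27, adjusted p = 0.0202), a call that was lost without WT polysome 1, AUF1 polysome 1 or 2, or WT total 1 or 2. Without the term for library number, 5 of the 24 thick filament, 3 of the 20 thin filament and 4 of the 29 Z-disc genes were called.

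Calcium release, calcium uptake and excitation genes were called higher in 20 of 26 cases (76.9%, against 6.7% of all genes, median 1.80), and in 0 without the number term. Casq2, a calsequestrin that stores calcium in the sarcoplasmic reticulum, stood at 40.2 and 17.9 CPM in WT and 508 and 156 CPM in AUF1 libraries (3.36 ± 0.36, adjusted p = 0.000634). Stac3, needed for coupling of the voltage sensor to calcium release, rose from 15.3 and 27 to 89.4 and 107 CPM (2.25 ± 0.28). Cav3, muscle caveolin, rose by 2.99 ± 0.28. Kcnj2, an inward rectifier potassium channel, was the 1 member called lower, from 96.1 and 62.6 to 5.07 and 8.92 CPM (-3.58 ± 0.57, adjusted p = 0.00393), and it was called lower with any 1 library left out.

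**Figure D3:**
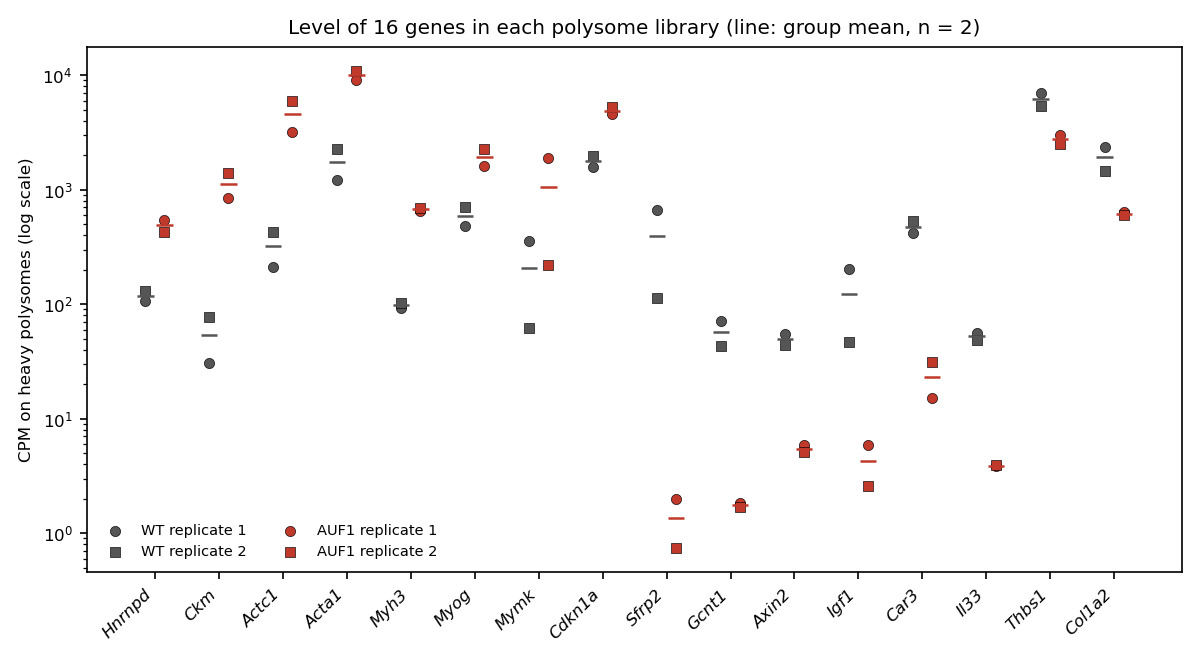
CPM on a log scale for 16 genes in each of the 4 polysome libraries, grey for WT and red for AUF1, circles for library 1 and squares for library 2, with a line at the mean of the 2 libraries of a group. The genes on the left are higher with AUF1 and those from Sfrp2 on are lower; Mymk is the gene drawn here whose genotypes overlap.

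Some genes of muscle energy supply were called higher, on lists with many members that did not pass. Ckm (muscle creatine kinase, chr7:19404776-19422841), which regenerates ATP from phosphocreatine, stood at 30.5 and 77.8 CPM in WT and 853 and 1392 CPM in AUF1 libraries, with a log2 fold change of 4.44 ± 0.37 (adjusted p = 0.000268) and 4.80 and 4.16 within the numbers. It is one of 6 genes called higher of 12 for creatine and purine energy buffering (50%, median 1.12), where 6.7% of all genes were. Mb, myoglobin, rose from 81.5 and 139 to 312 and 410.1 CPM (1.72 ± 0.29), and Nmrk2, a muscle nicotinamide riboside kinase, by 3.08 ± 0.40. Of 31 genes of glycolysis and glycogen, 9 were called higher (29%) and 1 lower. The 9 include the muscle isoforms of glycogen phosphorylase (Pygm, 2.83 ± 0.29), phosphoglycerate mutase (Pgam2, 2.89 ± 0.28), phosphofructokinase (Pfkm, 1.69 ± 0.24) and enolase (Eno3, 336 and 403 to 847 and 1004 CPM, 1.33 ± 0.26). Pgm5 also rose (3.11 ± 0.24). It is related to phosphoglucomutase and sits at cell adhesions, so it does not do what the list's name says. Of the 81 nuclear genes for the respiratory chain and ATP synthase, 16 were called higher (19.8%, median 0.50). The muscle isoforms Cox6a2 (5.74 and 10.5 to 32 and 70.3 CPM, 2.63 ± 0.33), Cox8b (2.90 ± 0.37) and Cox7a1 (2.03 ± 0.34) rose most among the named members, and subunits made in all tissues rose less, such as Uqcrfs1 (1.35 ± 0.20) and Ndufa9 (1.31 ± 0.25). The glycolysis count was 4 without AUF1 polysome 2, 5 without WT polysome 1, and 15 without AUF1 total 2. For the respiratory genes it was 4 without AUF1 polysome 2, 7 without WT polysome 1, 10 without AUF1 polysome 1 or WT total 1, and 25 without AUF1 total 2, and 0 without the number term. The calls of Eno3 (WT polysome 1 or AUF1 polysome 2), and Ndufa9 (AUF1 polysome 2) were lost without those libraries. Ppargc1a, the coactivator of mitochondrial biogenesis, stood at 1.22 and 1.40 CPM in WT and 3.23 and 3.06 CPM in AUF1 libraries and did not pass the test (1.30 ± 0.50, adjusted p = 0.121), although 2 of 18 alternatives called it.

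Of 29 myogenic transcription factors and cofactors, 3 were called higher and 2 lower, where 6.7% and 6.33% of all tested genes were. Myog, myogenin, which drives terminal differentiation, rose from 482 and 701 CPM in WT to 1607 and 2246 CPM in AUF1 libraries (1.71 ± 0.24, adjusted p = 0.00206), with 1.74 and 1.68 within the numbers. Smyd1, a muscle methyltransferase that acts on chromatin and on myosin assembly, rose by 2.64 ± 0.32, and the TEAD factor gene Tead4 by 1.64 ± 0.25. Id3, an inhibitor that keeps MyoD from its partner proteins, fell from 309 and 413 to 35.4 and 97 CPM (-2.55 ± 0.36, adjusted p = 0.00207). Nfix, which is known for the switch from embryonic to fetal muscle, was called lower at -0.79 ± 0.21. Myod1 itself stood at 191 and 359 CPM in WT and 261 and 337 CPM in AUF1 libraries, and the genotypes overlapped (0.15 ± 0.29, adjusted p = 0.793). The values were -0.44 ± 0.31 for Myf5 (adjusted p = 0.397) and 1.05 ± 0.36 for the satellite cell factor Pax7 (adjusted p = 0.0868). Mef2c, a muscle transcription factor whose mRNA is a known AUF1 target, stood at 7.95 and 13.8 CPM in WT and 25.1 and 17.2 CPM in AUF1 libraries. It was higher in both AUF1 libraries but did not pass the test (1.08 ± 0.39, adjusted p = 0.0995). Its change ranged from 0.25 without AUF1 polysome 1 to 1.71 without AUF1 polysome 2 (adjusted p = 0.0131 by edgeR), and 4 of 18 alternatives called it. Myf5 was called in 1 and Pax7 in 5 of the 18. The call of Nfix was lost without WT polysome 1 or 2, AUF1 polysome 1 or 2, or WT total 1 or 2. The number of regulators called higher was 5 without AUF1 total 1 or 2, and of those called lower 1 without AUF1 polysome 1 or 2, or WT total 1 or 2, and 4 without AUF1 total 1 or 2.

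Of 22 CDK inhibitors, D cyclins and pocket proteins, 3 were called higher and 1 lower (13.6% and 4.55%, against 6.7% and 6.33% of all genes). Cdkn1a, the p21 inhibitor of cyclin-dependent kinases and one of the 10 largest gains in CPM, stood at 1593 and 1976 CPM in WT and 4546 and 5231 CPM in AUF1 libraries (1.45 ± 0.26, adjusted p = 0.00691). Rb1, the retinoblastoma protein, rose from 44.5 and 61.5 to 121 and 201 CPM (1.55 ± 0.37) and Ccng1, cyclin G1, by 1.44 ± 0.32. Ccnd1, cyclin D1, which drives entry into S phase, fell from 153 and 215 to 91 and 71.8 CPM (-1.17 ± 0.29, adjusted p = 0.0262). Each of these 4 calls was lost without 1 of the libraries given here in parentheses: Cdkn1a (AUF1 polysome 2), Rb1 (AUF1 polysome 1 or WT total 1), Ccng1 (AUF1 polysome 1 or WT total 1), and Ccnd1 (WT polysome 2, or AUF1 polysome 1 or 2). Rb1 and Ccng1 were also not called when scaling to total counts alone. The number called higher was 1 without AUF1 polysome 1 or WT total 1, and 5 without AUF1 total 1 or 2, and of those called lower 0 without AUF1 polysome 1 or 2, and 3 without AUF1 total 1 or 2. Of 48 genes of DNA replication and mitosis 1 was called, the transcription factor gene E2f2, from 47.3 and 67.9 to 197 and 171 CPM (1.67 ± 0.33), and its call was lost without AUF1 polysome 1. The median change of the 48 was 0.58 within number 1 and -0.23 within number 2, so the numbers went opposite ways.

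At the muscle membrane, 6 of 16 genes of the acetylcholine receptor and neuromuscular junction were called higher and 2 lower. These are 37.5% and 12.5%, against 6.7% and 6.33% of all genes. The receptor subunits Chrng (2.59 ± 0.26), Chrnd (2.24 ± 0.35) and Chrnb1 (1.64 ± 0.21) rose, as did Dok7 (24.5 and 26.7 to 134 and 90.9 CPM, 2.07 ± 0.32), which activates the receptor kinase MuSK, and Erbb3, a neuregulin receptor (1.86 ± 0.37). Chrng, the fetal subunit, stood at 105 and 28.9 CPM in WT and 764 and 144 CPM in AUF1 libraries, which did not overlap although number 2 was far lower in both genotypes. Chrna1, the alpha subunit, did overlap, at 583 and 76.4 CPM in WT and 1855 and 132 CPM in AUF1 libraries, with 1.67 and 0.79 within the numbers and 1.23 ± 0.28 in the fit (adjusted p = 0.0210). Of 19 fusion genes 3 were called higher and 4 lower (15.8% and 21.1%). The fusion proteins Mymk, given above, and Mymx (listed as Gm7325, 109 and 131 to 271 and 503 CPM, 1.68 ± 0.31) rose together with Jam3, an adhesion molecule (1.12 ± 0.25). Elmo1, which acts with Dock proteins to activate Rac in fusion and engulfment, fell from 26.9 and 50.1 to 0.528 and 5.38 CPM (-4.23 ± 0.65), and so did the integrin Itga3 (-1.43 ± 0.36). Of 23 genes of the dystrophin complex and costamere 3 were called (13%, against 13% of all genes). Among them were the syntrophin gene Sntb1 (13.2 and 27.2 to 194 and 300.3 CPM, 3.70 ± 0.31) and the membrane repair gene Dysf (1.26 ± 0.22), while utrophin (Utrn) had 0.26 ± 0.38 (adjusted p = 0.731). Calls lost when 1 library was left out were those of Erbb3 (AUF1 polysome 1), Chrna1 (WT polysome 1, AUF1 polysome 1, or WT total 1), Mymx (AUF1 polysome 2), Jam3 (WT polysome 1 or 2, AUF1 polysome 1 or 2, or WT total 1 or 2), Itga3 (WT polysome 2, AUF1 polysome 1, or WT total 2), and Dysf (AUF1 polysome 2). The count of higher fusion genes was 1 without AUF1 polysome 2. That of lower fusion genes was 1 without WT polysome 2, AUF1 polysome 1, or WT total 2, and 2 without AUF1 polysome 2 or WT total 1, that of lower junction genes 0 without WT polysome 2, AUF1 polysome 1 or 2, or WT total 1 or 2, and 1 without WT polysome 1, and that of costamere genes 6 without AUF1 total 1 or 2.

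Of 21 proteins that bind AU-rich elements 3 were called (14.3%, against 13% of all genes). Hnrnpd itself was higher and the decay factors Zfp36 (160.3 and 73 to 70.5 and 45.6 CPM, -0.96 ± 0.26) and Zfp36l2 (313 and 557 to 173 and 278 CPM, -0.92 ± 0.22) lower, both with an adjusted p close to the threshold (0.0428 and 0.0251). Among 19 muscle splicing regulators 5 rose (26.3%, against 6.7% of all genes), and they did so with any 1 library left out. Rbm24 stood at 40.8 and 49.1 CPM in WT and 337 and 411 CPM in AUF1 libraries (3.05 ± 0.23, adjusted p = 0.000211), with 3.04 and 3.06 within the numbers. Its relative Rbm38 rose by 1.82 ± 0.25, Khdrbs3 by 1.76 ± 0.31, the kinase gene Srpk3 by 2.99 ± 0.35, and Rbfox1 from 0.312 and 0.825 to 6.43 and 10.2 CPM (3.94 ± 0.37). Without the term for library number, Rbm24 was the splicing regulator called. The ubiquitin ligase genes of muscle, on a list of 26 for ligases, proteasome regulators and autophagy, gave 7 rises. These are 26.9% of the list, against 6.7% of all genes. Trim72, a membrane repair protein, went from 33 and 35.5 to 206 and 266 CPM (2.78 ± 0.23), and Trim55 (2.45 ± 0.24), Trim54 (2.58 ± 0.28), Asb2 (2.41 ± 0.32) and Fbxl22 (3.78 ± 0.36) were also among the 7. Without a library in parentheses the call was lost for Zfp36 (WT polysome 1, AUF1 polysome 1 or 2, or WT total 1 or 2), and Zfp36l2 (WT polysome 1 or 2, AUF1 polysome 1 or 2, or WT total 2), and that of Zfp36 also when scaling to total counts alone.

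A list of 48 mRNAs known to hold AU-rich elements had 3 members called higher (Myog, Cdkn1a and Atf3) and 10 lower, with a median of -0.33. The shares were 6.25% and 20.8%, against 6.7% and 6.33% of all genes. The list was not made from the nonamer search above. That search found the nonamer in Fos, but not in Myog, Cdkn1a, Atf3, Il33, Egr1, Egr2, Klf2 or Ccnd1. Il33, a cytokine of the interleukin-1 family (chr19:29925114-29960718), fell most, from 55.7 and 49.1 CPM in WT to 3.88 and 3.91 CPM in AUF1 libraries (-3.75 ± 0.36, adjusted p = 0.000466), and it was called with and without the number term. The immediate early genes, which respond to serum and growth factors within minutes, had 4 of 25 members called lower (16%) and 1 higher, Atf3. All of these called members are also counted among the AU-rich mRNAs, so the counts share genes. Fos stood at 196 and 59.3 CPM in WT and 62.6 and 18 CPM in AUF1 libraries (-1.68 ± 0.24, adjusted p = 0.00208), with -1.65 and -1.72 within the numbers. AUF1 library 1 thus lay above WT library 2. Egr1 went from 2166 and 897 to 854 and 404 CPM (-1.25 ± 0.23) with no overlap, although AUF1 library 1 lay just below WT library 2, Egr2 had -1.15 ± 0.25 and Klf2 -1.23 ± 0.25. The number of AU-rich mRNAs called lower was 3 without AUF1 polysome 1, 4 without AUF1 polysome 2, and 6 without WT polysome 1, and of immediate early genes 1 without AUF1 polysome 1 or 2, 8 without AUF1 total 2, and 9 without AUF1 total 1. The calls of Egr1 (AUF1 polysome 1 or 2), Egr2 (WT polysome 1, or AUF1 polysome 1 or 2), Klf2 (WT polysome 2, or AUF1 polysome 1 or 2), Cdkn1a (AUF1 polysome 2), and Atf3 (WT polysome 1 or AUF1 polysome 1) were lost without the libraries in parentheses.

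The largest fall among genes with mean log2 CPM from 3 upwards was that of Sfrp2 (chr3:83766321-83774316), a secreted protein that binds Wnt ligands. Its level was 671 and 112 CPM in the WT libraries and 1.99 and 0.737 CPM in the AUF1 libraries, a log2 fold change of -7.94 ± 0.49 (adjusted p = 0.000211), and -8.35 and -7.13 within the numbers. Sfrp2 was one of 11 genes called lower among 26 Wnt feedback genes and targets (42.3%, against 6.33% of all genes, median -0.90). Axin2, an inhibitor that Wnt signalling itself induces, fell from 54.5 and 44.4 to 5.84 and 5.12 CPM (-3.17 ± 0.25, adjusted p = 0.000235), with narrow spread in each genotype. Nkd2, which inhibits Dishevelled, fell from 65.6 and 49.3 to 1.93 and 4.53 CPM (-4.18 ± 0.48), and Lgr5, a receptor for R-spondins, from 29.1 and 14.6 to 0.901 and 0.295 CPM (-5.23 ± 0.37). Of 35 Wnt ligands, receptors and transducers 7 were called lower and 1 higher (20% and 2.86%, against 6.33% and 6.7% of all genes). The receptor genes Fzd1 (231 and 112 to 67.5 and 33.6 CPM, -1.75 ± 0.22) and Fzd8 (-2.03 ± 0.27) and the ligand genes Wnt10a (-1.80 ± 0.24), Wnt4 (-1.44 ± 0.25) and Wnt10b (-1.45 ± 0.28) were among those lower. The feedback count was 7 without AUF1 polysome 1, the core count 3 without AUF1 polysome 1 and 4 without AUF1 polysome 2, and the calls of Wnt4 (AUF1 polysome 1) and Wnt10b (AUF1 polysome 1 or 2) were lost without those libraries. Without the number term Axin2 was the feedback gene called.

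In the TGF-beta, BMP and myostatin pathway, 9 of 45 genes were called lower (20%, against 6.33% of all genes, median -0.48). Inhbb, an activin subunit, stood at 189.8 and 62.8 CPM in WT and 64.1 and 18.9 CPM in AUF1 libraries (-1.65 ± 0.22), a small overlap between AUF1 library 1 and WT library 2. Smad6, an inhibitory SMAD, fell from 56.9 and 60.2 to 11.9 and 20.8 CPM (-1.89 ± 0.26, adjusted p = 0.00207), and the BMP target Id3 is given above. Insulin-like growth factor 1 (Igf1), which promotes muscle growth, fell from 201 and 46.4 to 5.90 and 2.58 CPM (-4.72 ± 0.59, adjusted p = 0.00126), and its binding protein Igfbp3 from 34.7 and 7.43 to 2.77 and 0.959 CPM (-3.34 ± 0.35). On the same list of 18, Igf2r, which clears Igf2, was higher (1.08 ± 0.24). Pappa, a protease that frees insulin-like growth factors, was also called higher (1.43 ± 0.40). Of 20 Notch genes 1 was called lower and 1 higher, 5% each, below the 6.33% and 6.7% of all genes. They are both glycosyltransferase genes whose products modify Notch, Lfng lower (40.7 and 17.9 to 10.5 and 3.61 CPM, -2.12 ± 0.27) and Mfng higher, at 0.0568 to 1.12 CPM in the 4 libraries. Notch1 (1.09 ± 0.36, adjusted p = 0.0768) and Notch2 (-0.74 ± 0.22, adjusted p = 0.0539) did not pass, but of 18 alternatives 6 called Notch1 and 9 called Notch2. The Notch genes called higher numbered 0 without WT polysome 1, or AUF1 polysome 1 or 2, and 3 without WT polysome 2, or AUF1 total 1 or 2, and those called lower 3 without WT polysome 2 and 4 without AUF1 total 1 or 2. The TGF-beta count was 14 without AUF1 total 1, and Igf2r (WT polysome 1, AUF1 polysome 1 or 2, or WT total 1), and Pappa (WT polysome 2 or AUF1 polysome 1) were not called without a library in parentheses. Pappa also lost its call under each other scaling tried and with the filter at 1 CPM. Without the number term 0 of the TGF-beta genes were called.

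Of 31 cytokines, chemokines and their receptors, 13 were called lower (41.9%, against 6.33% of all genes, median -0.50). Among them, Il33, Csf1, Cxcl1 and Cxcl5 are also counted with the AU-rich mRNAs. Beside Il33, the leukaemia inhibitory factor receptor Lifr fell from 219.7 and 139 CPM in WT to 70.4 and 34.7 CPM in AUF1 libraries (-1.81 ± 0.24, adjusted p = 0.00172), and the 2 genotypes did not overlap. Tnfrsf11b, the decoy receptor osteoprotegerin, went from 14.5 and 4.22 to 1.09 and 0.700 CPM (-3.23 ± 0.46), with a wide spread between the WT libraries. The number of lower members was 6 without AUF1 polysome 1.

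Extracellular matrix genes that were called were mostly lower in each of 3 classes, although most members of each class did not pass, and 6.33% of all genes were called lower. Collagens had 11 of 32 genes called lower and 1 higher (median -1.06), matricellular proteins, proteoglycans and glycoproteins 18 of 43 lower (median -0.77), and matrix proteases and their inhibitors 8 of 25 lower and 2 higher (median -1.02). Col1a2, a chain of type I collagen, stood at 2374 and 1456 CPM in WT and 642 and 596 CPM in AUF1 libraries (-1.55 ± 0.29, adjusted p = 0.00835). Col12a1, which binds to collagen fibrils, fell from 373 and 222 to 51 and 45.2 CPM (-2.56 ± 0.32). Thbs1, thrombospondin 1, which also activates TGF-beta, had the largest loss in CPM, from 6986 and 5372 to 2987 and 2501 CPM (-1.16 ± 0.23, adjusted p = 0.0107), and its relative Thbs2 fell from 93.3 and 44.1 to 30.3 and 11.7 CPM (-1.78 ± 0.27). Mfap5, a microfibril protein, went from 316 and 57.9 to 13.5 and 9.88 CPM (-3.50 ± 0.54), Lama4, a laminin chain, from 24.9 and 15.9 to 1.06 and 2.14 CPM (-3.62 ± 0.46) and the proteoglycan decorin (Dcn) from 37.8 and 9.78 to 4.41 and 1.59 CPM (-2.88 ± 0.35). In none of these 7 genes did the genotypes overlap. Among enzymes and inhibitors, Timp3 differed more between the numbers than between the genotypes (1346 and 284 CPM in WT, 532 and 128 CPM in AUF1, -1.24 ± 0.27), tissue plasminogen activator (Plat, -1.89 ± 0.32) and the serpin Serpine2 (-2.42 ± 0.41) fell, while the membrane protease Mmp15 rose (1.54 ± 0.31). Integrin subunits split, with 4 of 19 lower, led by the collagen receptors Itga10 (-2.64 ± 0.30) and Itga11 (50.4 and 18.1 to 3.42 and 4.61 CPM, -2.82 ± 0.48), and 3 higher, led by the laminin receptor Itga6 (15.1 and 4.76 to 59.5 and 16.3 CPM, 1.88 ± 0.24). The integrin shares were 21.1% lower and 15.8% higher, against 6.33% and 6.7% of all genes. The matrix counts moved with the libraries, and without the number term 0 genes of the 3 classes were called. Collagens called lower numbered 1 without AUF1 polysome 1 and 18 without AUF1 total 1. Matricellular and related genes numbered 5 without AUF1 polysome 1 and 30 without AUF1 total 1, enzymes and inhibitors 1 without AUF1 polysome 1 and 14 without AUF1 total 1, and lower integrins 2 without AUF1 polysome 1. Higher integrins numbered 1 without AUF1 polysome 1 and 5 without AUF1 total 1 or 2. Of the genes named above, Thbs1 (AUF1 polysome 1 or 2), Col1a2 (AUF1 polysome 1), Timp3 (AUF1 polysome 1 or 2), Serpine2 (AUF1 polysome 1), and Mmp15 (WT polysome 1 or AUF1 polysome 2) lost their call without a library in parentheses.

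Fibroblast markers moved with the matrix genes. Of 8 tested markers all 8 were below 0 and 5 were called lower (62.5%, against 6.33% of all genes), with a median of -1.31. Their summed level was 825 and 299 CPM in WT and 287 and 217 CPM in AUF1 libraries. AUF1 libraries were below both WT libraries, and WT library 1 stood apart from the other 3. Pdgfra went from 17.6 and 8.16 to 4.07 and 2.76 CPM (-1.85 ± 0.35), and Dcn and Mfap5, given above, are on both lists. The count of markers called lower was 2 without AUF1 polysome 1, and the call of Pdgfra was lost without AUF1 polysome 1. Their part in the matrix result was not tested.

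Smooth muscle markers, several of which are also made by differentiating myoblasts, had 3 of 9 members called higher (33.3%, against 6.7% of all genes). Cnn1, calponin, rose from 11.4 and 6.79 to 36.3 and 41.1 CPM (2.13 ± 0.29), Actg2 by 1.75 ± 0.26, and Tagln by 1.08 ± 0.22, the last not called without WT polysome 1, or AUF1 polysome 1 or 2. Of 4 tested adipocyte markers 1 was called higher and 1 lower, 25% each, against 6.7% and 6.33% of all genes. Their summed level was 75.0 and 115 CPM in WT and 44.0 and 54.3 CPM in AUF1 libraries. The fatty acid carrier Cd36, the 1 marker above 0, stood at 0.398 and 0.127 CPM in WT and 10.1 and 3.43 CPM in AUF1 libraries (4.64 ± 0.46). Cebpa was lower (-1.63 ± 0.29), a call lost without AUF1 polysome 1. Other lists had few or no calls: 0 of 27 genes of sterol and fatty acid synthesis, 0 of 14 long noncoding RNAs, and 1 of 26 interferon-stimulated genes, higher.

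**Figure D4:**
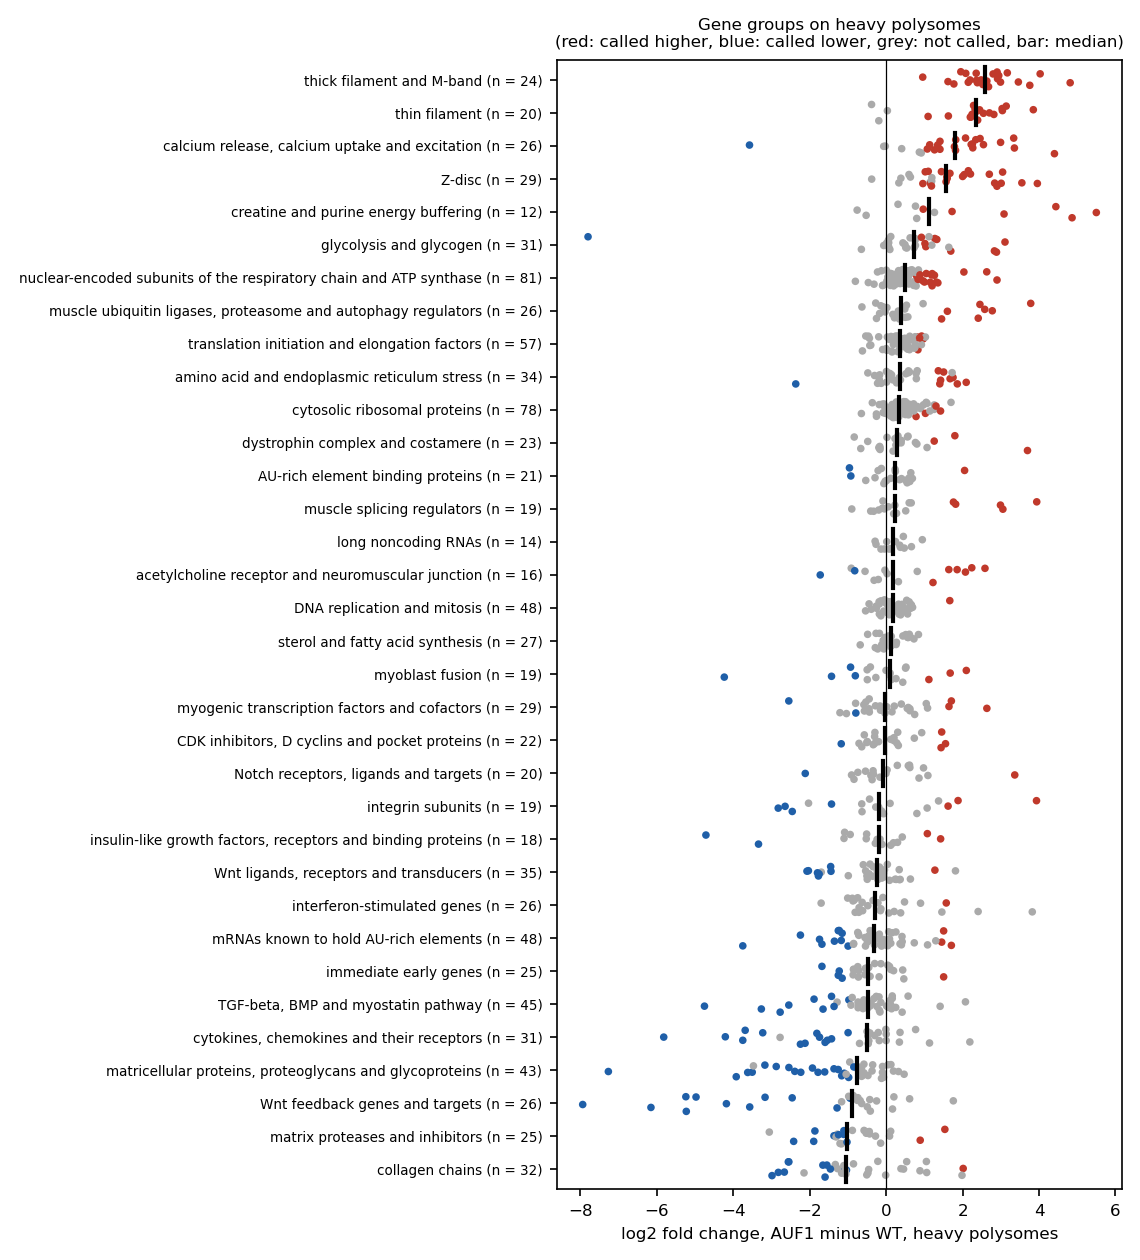
Log2 fold change of AUF1 over WT on heavy polysomes (x axis) for every tested member of 34 gene groups (y axis, n tested in brackets), red where called higher, blue where called lower and grey where not called, with a black bar at the group median. Groups run from thick filament at the top (median 2.58) to collagen chains at the bottom (median -1.06).

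Genes of the translation machinery showed small shifts. Of 78 cytosolic ribosomal protein genes 4 were called higher (5.13%, median 0.34), fewer than the 6.7% of all genes. They were led by Rps10 (43.3 and 43.1 to 116 and 116 CPM, 1.42 ± 0.22). Ribosomal protein genes have many processed copies in the genome, and their counts are uncertain for that reason. Of 57 initiation and elongation factors 6 were called higher (10.5%, against 6.7% of all genes, median 0.38). Examples are Eif3l (129 and 154 to 230.3 and 290.0 CPM, 0.88 ± 0.23) and Eef1b2 (0.83 ± 0.23). The ribosomal count was 1 without WT total 1 or 2, 2 without WT polysome 1 or 2, or AUF1 polysome 2, 8 without AUF1 total 1, and 9 without AUF1 total 2. That of the factors was 0 without WT polysome 2, AUF1 polysome 1, or WT total 1 or 2, 1 without WT polysome 1 or AUF1 polysome 2, 13 without AUF1 total 1, and 15 without AUF1 total 2. A number term for each fraction gave 15 ribosomal genes and 26 factors, and the 4 polysome libraries alone 15 and 25, where 1803 of all 13167 genes were called higher by the former. Scaling to total counts alone gave 1 and 4. Without a library in parentheses the call was lost for Eif3l (WT polysome 1 or 2, AUF1 polysome 1 or 2, or WT total 1 or 2), and Eef1b2 (WT polysome 1 or 2, AUF1 polysome 1 or 2, or WT total 1 or 2), and that of Eef1b2 also with upper quartile or total count scaling. Enzymes of serine and amino acid synthesis, which are targets of the stress factor ATF4, included larger changes. Psat1 stood at 56.6 and 136 CPM in WT and 261 and 541 CPM in AUF1 libraries (2.10 ± 0.23, adjusted p = 0.000797), Phgdh went from 5.37 and 12.4 to 20.5 and 43.5 CPM (1.86 ± 0.31), Mthfd2 from 51.1 and 127 to 173 and 424 CPM (1.75 ± 0.21) and asparagine synthetase (Asns) from 31.8 and 81.4 to 117 and 229 CPM (1.67 ± 0.26). For all 4 the AUF1 libraries lay above both WT libraries, and library 2 lay above library 1 in both genotypes. They belong to a list of 34 amino acid and endoplasmic reticulum stress genes with 8 called higher and 1 lower. These are 23.5% and 2.94%, against 6.7% and 6.33% of all genes. The higher count fell most without WT polysome 1 or AUF1 polysome 1.

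Several of the strongest rises lie outside these groups. Padi2 (chr4:140906344-140952586), which converts arginine in proteins to citrulline, rose most among genes whose mean log2 CPM was 3 or more, from 2.36 and 6.22 CPM in WT to 75.4 and 175 CPM in AUF1 libraries (4.90 ± 0.29, adjusted p = 0.000211). The actin-associated genes Afap1l1 (2.95 and 3.97 to 45.5 and 65 CPM, 3.99 ± 0.30) and Ablim3 (12 and 16.5 to 129 and 273 CPM, 3.76 ± 0.27) were also among the 15 largest rises. Each was separated between genotypes. St8sia2, which adds polysialic acid to the adhesion molecule NCAM, rose from 4.12 and 1.33 to 100.3 and 9.92 CPM (3.82 ± 0.47), with 4.58 and 2.83 within the numbers. Tceal7 (3.72 ± 0.40), Tbc1d8 (3.48 ± 0.28), the filamin-binding Filip1 (3.46 ± 0.37) and fibrocystin (Pkhd1, 3.39 ± 0.33) complete the 15 largest rises, and all 15 were called with any 1 library left out.

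Among falls outside the groups, Gcnt1 (chr19:17326141-17372844), the branching enzyme of core 2 O-glycans, stood at 71.5 and 43 CPM in WT and 1.83 and 1.70 CPM in AUF1 libraries (-5.00 ± 0.36, adjusted p = 0.000211), and the genotypes did not overlap. Slc1a3, a glutamate transporter, fell from 114 and 67.2 to 1.93 and 6.53 CPM (-4.56 ± 0.73), and Car3, carbonic anhydrase 3, from 417 and 537 to 15.2 and 31.2 CPM (-4.46 ± 0.31, adjusted p = 0.000211). Hopx, a homeodomain-only regulator (-4.13 ± 0.60), the peptidase inhibitor Pi15 (-3.90 ± 0.71), the matrix protein Spon2 (-3.61 ± 0.64), Fam43a (-3.61 ± 0.25) and the heparan sulfate enzyme Hs3st1 (141 and 34.4 to 7.05 and 7.23 CPM, -3.32 ± 0.54) also fell, and all 15 of the largest falls were called with any 1 library left out. By loss of CPM, the small phosphatase gene Ctdsp2 (724 and 1055 to 281 and 449.9 CPM, -1.29 ± 0.23), the Arf regulator Asap1 (722 and 789.8 to 184 and 301 CPM, -1.72 ± 0.31), Tmem123 (961 and 219 to 204 and 56.2 CPM, -2.12 ± 0.34), the inositol phosphate hydrolase gene Nudt4 (-1.23 ± 0.23) and the secreted follistatin-like Fstl1 (1569 and 188 to 739 and 103 CPM, -0.98 ± 0.25) came next to Thbs1, Col1a2, Egr1 and Timp3. Fstl1 differed far more between the numbers than between the genotypes. Not called without a library in parentheses were Ctdsp2 (AUF1 polysome 1), Nudt4 (AUF1 polysome 1 or 2), and Fstl1 (WT polysome 1, AUF1 polysome 1 or 2, or WT total 2).

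In total RNA of the same cells, 1730 genes (13.1%) were called by the same fit, and 708 of the 882 genes higher on polysomes and 609 of the 834 lower ones were called there in the same direction, with 0 in the opposite one. In total RNA 920 genes were higher and 810 lower, so these overlaps are 708 of 920 and 609 of 810 from that side. The difference between the change on polysomes and the change in total RNA was tested in the same model, and 0 genes (0%) passed. At an unadjusted p under 0.05 there were 49 by edgeR, 36 by DESeq2 and 56 by limma-voom, each with 0 after adjustment. By chance alone, a well calibrated test would put a share of about 0.05 of the 13167 tested genes there, far more than these counts. The test was thus conservative, and its 0 does not show that both fractions changed alike. No term of the model joined the polysome and total libraries of the same genotype and number. With 1 library left out the unadjusted number by edgeR ran from 41 (AUF1 polysome 1 or WT total 1) to 1639 (AUF1 total 2), and it was 217 with a number term for each fraction. After adjustment, without WT polysome 2, 11 genes passed, all with a lower change on polysomes. For Ckm the change in total RNA was 4.56 ± 0.38, for Padi2 4.94 ± 0.29, for Cdkn1a 1.78 ± 0.26, for Myog 1.77 ± 0.24, for Sfrp2 -7.68 ± 0.49 and for Thbs1 -1.23 ± 0.23, and each differed from the polysome value given above by less than the SE of that difference. The median SE of a polysome change over all genes was 0.28.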

How the data were processed

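Heavy polysome RNA and total RNA of WT and AUF1 C2C12 cells were sequenced in 8 libraries, 2 per group. Per the labels' protocols, 500 ng of RNA went into each library (NEBNext Ultra). The authors deposited raw counts per gene symbol for 23420 genes and 5 summary lines. Per the submitters' processing notes, cutadapt, Bowtie, Trimmomatic, STAR and SAMtools were used with the build mm10. The sources used here give no versions, counter, annotation or use of strand, so the counts of overlapping genes cannot be separated. The summary lines were left out. Reads outside any gene made up 6.83% to 7.00% and ambiguous reads 0.254% to 0.280% of the polysome counts. 27 gene names had been turned into dates (0.258% to 0.299% of polysome counts) and were kept but not named.

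Genes were kept by filterByExpr (13167) and scaled by TMM. edgeR 4.0.16 (R 4.3.3) fitted a quasi-likelihood model to all 8 libraries with 1 coefficient per group and 1 additive term for the library number. This left 3 residual degrees of freedom, where the 4 polysome libraries alone leave 1. Polysome and total libraries of the same genotype and number were treated as independent. The SE and p-values on polysomes thus also draw on the spread of the total RNA libraries. Whether spread shared by such libraries affected them was not tested. Genes were called at a Benjamini-Hochberg adjusted p under 0.05 over all tested genes (two-sided). The SE was computed by dividing the log2 change by the root of the F statistic. Changes within a number are differences of log2 CPM with a prior count of 2. The pairing by number rests on the titles and was set with the comparison. The correlation of same-numbered polysome libraries (0.90) comes from the same counts and was not a reason for it. The labels do not say what a number shares. The fit was tested on simulated data in which 200 of 13167 genes were changed, 100 of them 2-fold and 100 of them 4-fold. It recovered 23% of the 2-fold and 98% of the 4-fold changes, with 14 false calls. A gene that was not called may therefore still have changed by about 2-fold. The simulated counts were drawn independently for each library from the fitted model itself, and low-count genes were left unchanged. The simulation thus cannot show what share of the calls in the data is false.

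The comparison, the gene lists and the rule for naming genes were chosen with earlier results of these data known. The rule takes Hnrnpd, the 15 largest called rises and falls whose mean log2 CPM is 3 or more and whose groups do not overlap (528 and 388 eligible, 1 gene model passed over), the 10 largest gains and losses in CPM, up to 5 members per list by p, and 19 genes by name. Lists are described by counts and medians beside those of all genes. Alternatives were no number term, the 4 polysome libraries alone, a number term per fraction, DESeq2 1.42.0, limma-voom (limma 3.58.1), other scalings and filters, and each library left out. Positions and 3′ untranslated regions come from GENCODE M21 (mm10). 13035 tested genes (99.0%) had a position and 12576 (95.5%) such a region. A planned check of promoter motifs is void, since 10432 of 13167 tested genes (79.2%) had a RefSeq promoter window.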

Additional observations from a re-analysis of the deposited data

How the results depend on the processing

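On heavy polysomes 1716 genes were called. With no replicate block 46 were called (37 higher, 9 lower), all of them among the 1716. In total RNA the count went from 1730 to 134 with no replicate block. A number term of its own for each fraction gave 3559 on polysomes and 3603 in total RNA, and the 4 polysome libraries alone gave 4730, of which 1686 were among the 1716, with 1 residual degree of freedom. DESeq2 called 2417 (1188 higher, 1229 lower) and limma-voom 1885. The other scalings and filters gave 1518 to 1855. With 1 library left out the polysome count ranged from 592 (AUF1 polysome 1) to 3011 (AUF1 total 1), that of total RNA from 329 (WT total 1) to 2975 (AUF1 total 2), and that of the difference between the fractions from 0 to 11 (WT polysome 2). Leaving out 1 library leaves a group with a single library, which is assumed to vary like the others. In the other 9 alternatives the difference had 0 called genes. The cause of these shifts was not tested.

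Among the 208 genes tracked by name, 197 were called, and 128 were called whichever library was left out. Without the number term 173 of the 197 lost their call. No scaling, filter or other tool turned the direction of any of them. Of the 11 not called, 7 were called under at least 1 alternative. Directions turned for 2 genes that did not pass the test. Myod1 ranged from -0.19 without WT polysome replicate 1 to 0.56 without WT polysome replicate 2. Utrn was at -0.04 without WT polysome replicate 2 and ranged from -0.39 without AUF1 polysome replicate 1 to 0.71 without AUF1 polysome replicate 2. With 27040518 or more gene counts per polysome library, counting error is small at the levels of most genes named here, but folds of genes well below 1 CPM in 1 genotype are uncertain.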

Other observations

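Some gene groups that the account above does not describe also moved on heavy polysomes. The groups in question were chosen after the values were seen, so their counts are a description. Of 35 subunits of the proteasome, the complex that degrades tagged proteins, all 35 were above 0 (median 0.96) and 23 were called higher, where 6.7% of all genes were. Psmd12, a lid subunit, stood at 65.2 and 84.3 CPM in WT and 154 and 196 CPM in AUF1 libraries (1.23 ± 0.22, log2 ± SE, adjusted p = 0.00655 by edgeR). The ATPase subunit Psmc5 went from 122 and 147 to 275 and 351 CPM (1.22 ± 0.22). Neither overlapped between genotypes. Of 23 aminoacyl-tRNA synthetases and their scaffold proteins, all 23 were above 0 (median 0.84) and 12 were called higher, such as Gars (109 and 169.7 to 281 and 498 CPM, 1.47 ± 0.23) and Nars (1.51 ± 0.25). The chaperonin that folds actin and tubulin had 5 of 9 genes called higher, with Cct8 at 113 and 138 CPM in WT and 279 and 350.1 CPM in AUF1 libraries (1.32 ± 0.21). Tubulins had 6 of 13 called higher and 1 lower, with Tubb6 going from 389 and 726 to 1364 and 2331 CPM (1.74 ± 0.27). These counts depend on the number term, without which 0 of these genes were called, and on single libraries. The proteasome count was 2 without AUF1 polysome 2, 3 without AUF1 polysome 1, 5 without WT total 1, 7 without WT polysome 1, 12 without WT polysome 2, and 13 without WT total 2. The synthetase count was 2 without AUF1 polysome 2, 4 without WT polysome 2, AUF1 polysome 1, or WT total 1 or 2, 5 without WT polysome 1, and 19 without AUF1 total 2. The chaperonin count was 1 without AUF1 polysome 2, 2 without WT polysome 1, and 3 without AUF1 polysome 1, and the tubulin count 2 without AUF1 polysome 2 and 3 without WT polysome 2. The calls of Psmd12 (AUF1 polysome 1) and Psmc5 (AUF1 polysome 2) were lost without the libraries in parentheses. Tubulin genes resemble each other closely, and their counts are uncertain for that reason.

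Hedgehog signalling genes had 6 of 13 members called lower (46.2%, against 6.33% of all genes, median -0.86). Gas1, a co-receptor, fell from 462 and 259.6 CPM in WT to 86.8 and 67.6 CPM in AUF1 libraries (-2.18 ± 0.22, adjusted p = 0.000591 by edgeR), and Ptch1, the receptor that the pathway itself induces, from 44.3 and 25.8 to 15.1 and 10.2 CPM (-1.46 ± 0.28). The count was 1 without AUF1 polysome 1 or 2, and 3 without WT polysome 1, and the call of Ptch1 was lost without WT polysome 1, or AUF1 polysome 1 or 2. Both tested metallothioneins, which bind zinc and other metals, were lower with any 1 library left out, Mt1 from 136 and 204 to 16.8 and 54.6 CPM (-2.37 ± 0.37) and Mt2 from 33.9 and 57.8 to 3.08 and 11 CPM (-2.86 ± 0.38). Of 22 Hox genes 4 were called lower (18.2%, against 6.33% of all genes). Hoxc6 stood at 33.9 and 40.5 CPM in WT and 11 and 15 CPM in AUF1 libraries (-1.53 ± 0.25). The Hox count was 1 without AUF1 polysome 1, 2 without AUF1 polysome 2, 7 without AUF1 total 2, and 8 without AUF1 total 1, and the call of Hoxc6 was lost without AUF1 polysome 1. Without the number term 0 genes of these 3 groups were called.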
